A study of Mus musculus with 8 samples.

Results

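Heterogeneous nuclear ribonucleoproteins (hnRNPs) are abundant RNA-binding proteins that coat nascent transcripts and act in splicing, nuclear retention, export and turnover. The genes described here are the 10 rows of the gene table named Hnrnpa0, Hnrnpa1, Hnrnpa2b1, Hnrnpa3, Hnrnpab, Hnrnpc, Hnrnpd, Hnrnpf, Hnrnpl and Hnrnpm, and all 10 names were found among its 17597 genes. The libraries were total RNA-seq of mouse embryonic stem cells (mES cells) of Cast x 129S background in which METTL3, the enzyme that deposits N6-methyladenosine (m6A) on RNA, carries an FKBP12F36V degron tag. The group labelled dTAG-13 held 4 libraries treated for 26 h with the degrader that removes the tagged protein, and the group labelled NodTAG held 4 untreated libraries. Neither group received doxycycline, so the TetOn promoter that replaces the endogenous Xist promoter in all of these cells was not induced. Each group held 2 libraries from each of 2 clonal lines, C3 and H5, and all cells were grown on inactivated mouse fibroblast feeders. The labels place the TetOn promoter on the 129S allele. The study's text and reporting summary place it on the Mus castaneus X chromosome in the lines with METTL3 tagged at its C terminus, which include C3 and H5. The mean over libraries used here cannot check either statement. The labels' extraction text describes chromatin RNA, whereas the molecule label and the methods describe total RNA, which is how the libraries are treated here.

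The value used for each gene was the authors' mean over the libraries of counts divided by a size factor per library, called the mean count below. It pools both groups and both clones, so no value per library, no spread between libraries and no difference between the dTAG-13 and untreated groups is given here. Levels of different genes were compared as mean count per kb, by default of the transcript with the longest coding sequence in the GENCODE vM21 annotation of mm10, with other lengths named where used. Shares, ranks and percentiles by mean count describe the size of a row, which also grows with transcript length. Among markers of mES cells, Pou5f1 stood at 8762 per kb and Nanog at 2683 per kb, whereas the 5 endoderm or mesoderm markers lay between 2.49 and 49.3 per kb. Of the 9 fibroblast markers, the collagen genes Col1a1, Col1a2 and Col3a1 were at 3.34, 2.58 and 1.51 per kb, and Thy1 at 66.8. Fn1 was at 594, Vim at 945, Lgals1 at 1215, S100a6 at 1725 and Sparc at 2234 per kb. How much of each hnRNP mean came from feeder cells was not tested.

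hnRNP proteins recognise short single-stranded motifs through RNA recognition motif (RRM) domains. HNRNPC binds runs of uridines, and the term m6A switch refers to a change in RNA folding at a methylated base that opens such a binding site. HNRNPA2B1 has been described as a reader of m6A in the nucleus, and the same family regulates pre-mRNA splicing in stem cells and most other cell types.

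The 10 hnRNP genes were abundant for the genes listed. Their mean counts summed to 76288, which was 0.523% of the 14573411 summed over all genes, although they made up 0.0568% of the genes. The share was 9.21-fold above an equal share per gene. All 10 lay above the median gene per kb, which was at 59.2, and 7 lay among the top 5% of genes by mean count. The median hnRNP gene stood at the 97.9th percentile by mean count.

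**Figure D1:**
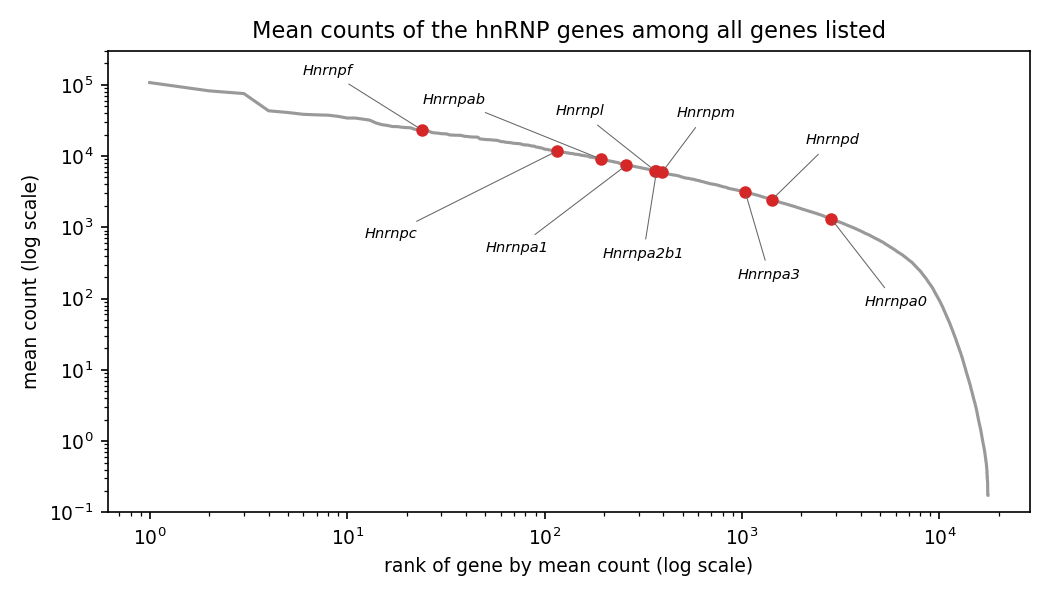
Mean count of every gene listed (grey line) against its rank, both on log axes, with the 10 hnRNP genes as red points. Hnrnpf lies at rank 24 with a mean count of 23118, and Hnrnpa0, the lowest, at rank 2839 with 1304.

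Hnrnpf held the highest place on both scales. HNRNPF binds runs of guanines and regulates splicing and polyadenylation. Its mean count was 23118, rank 24 of all genes, and its level was 9628 per kb, or 162.6-fold that of the median gene. The gene occupies chr6:117900324-117925622 on the plus strand, and its whole coding sequence of 1245 bases lies in 1 of 3 exons. Hnrnpf alone held 27.9% of the summed level per kb of the 10 genes.

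Hnrnpab and Hnrnpc followed. Hnrnpab, which encodes a CArG-box binding protein of the hnRNP A/B type, lies at chr11:51600100-51606847 on the minus strand and had a mean count of 9008, or 6269 per kb. Hnrnpc lies at chr14:52073377-52104028 on the minus strand and had a mean count of 11660, or 4096 per kb. Hnrnpc had the higher mean count and Hnrnpab the higher level per kb, because the Hnrnpab transcript has 1437 bases and that of Hnrnpc 2847. Together with Hnrnpf, these genes held 58.0% of the summed level per kb.

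Hnrnpa1 and Hnrnpa2b1 held the next places. Both encode shuttling proteins with a pair of RRM domains and a glycine-rich tail that act as splicing repressors. Hnrnpa1, at chr15:103240432-103246692 on the plus strand, had a mean count of 7455 and a level of 3887 per kb. Hnrnpa2b1, at chr6:51460932-51469894 on the minus strand, had a mean count of 6115 and a level of 3539 per kb. Their ratio per kb was 1.10 and ran up to 2.55 over the union of exons. The ratio of Hnrnpc to Hnrnpa1 was 1.05, ran up to 1.71 over the longest transcripts and turned to 0.613 over bases that no other annotated gene shares. Without values per library these neighbours in the order cannot be told apart from equal levels.

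Hnrnpl, Hnrnpa3 and Hnrnpm formed the middle of the order on the default length. HNRNPL binds CA-rich elements and regulates alternative splicing. Its gene, at chr7:28808541-28822266 on the plus strand, had a mean count of 6210 and a level of 2849 per kb. Hnrnpa3, a close relative of Hnrnpa1 and Hnrnpa2b1 at chr2:75659261-75669407 on the plus strand, had a mean count of 3096 and a level of 1872 per kb. Hnrnpm encodes a splicing regulator that binds GU-rich sequence. Hnrnpm, at chr17:33646233-33686860 on the minus strand, had a mean count of 5876 and a level of 1494 per kb, the former nearly that of Hnrnpl and the latter lower.

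The lowest places were those of Hnrnpa0 and Hnrnpd. Hnrnpa0 is a gene without introns, at chr13:58125879-58128556 on the minus strand, and encodes an hnRNP A type protein that binds AU-rich elements. It had a mean count of 1304 and a level of 487 per kb. Hnrnpd encodes AUF1, which binds AU-rich elements and promotes decay of the mRNAs that hold them. At chr5:99955935-99978938 on the minus strand, it had a mean count of 2445 and a level of 359 per kb. The step from Hnrnpm down to Hnrnpa0 was 3.07-fold, the widest between neighbours on this length but 1.52-fold over the union of exons, where the widest step was the 2.34-fold one from Hnrnpf to Hnrnpab. The highest and lowest genes differed 26.8-fold per kb.

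The gene models differ in shape. Hnrnpa0 has 1 exon and Hnrnpm 16, and coding lengths run from 915 bases in Hnrnpa0 to 2187 in Hnrnpm. The Hnrnpl model used starts inside its coding sequence and has no 5′ UTR, so its length, 2180 bases, is a low estimate. The Hnrnpm model used has a 5′ UTR of 1481 bases. Hnrnpm stood at 1494 per kb with it and at 3358 per kb with the median length of its protein-coding transcripts. Whether the Hnrnpm length is a high estimate was not tested.

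The length chosen for each gene moved these levels. The Hnrnpd transcript used has 6811 bases, of which 5399 lie in 1 exon, and Hnrnpd stood at 359 per kb with it and at 1525 per kb with the median length of its protein-coding transcripts. Hnrnpa2b1 ranged from 929 per kb over the union of its exons to 3723 per kb over its median protein-coding transcript. Hnrnpa0, with a single transcript, stayed at 487 per kb. Across 4 definitions of length, 9 of the 10 genes varied more than 1.5-fold, while 40 of the 45 pairs of genes (88.9%) kept their order. Hnrnpf was the highest and Hnrnpab above Hnrnpa1 under each of these 4 definitions. The pairs that changed order were Hnrnpab and Hnrnpc, Hnrnpa2b1 and Hnrnpl, Hnrnpa3 and Hnrnpm, Hnrnpl and Hnrnpm, and Hnrnpa0 and Hnrnpd.

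**Figure D2:**
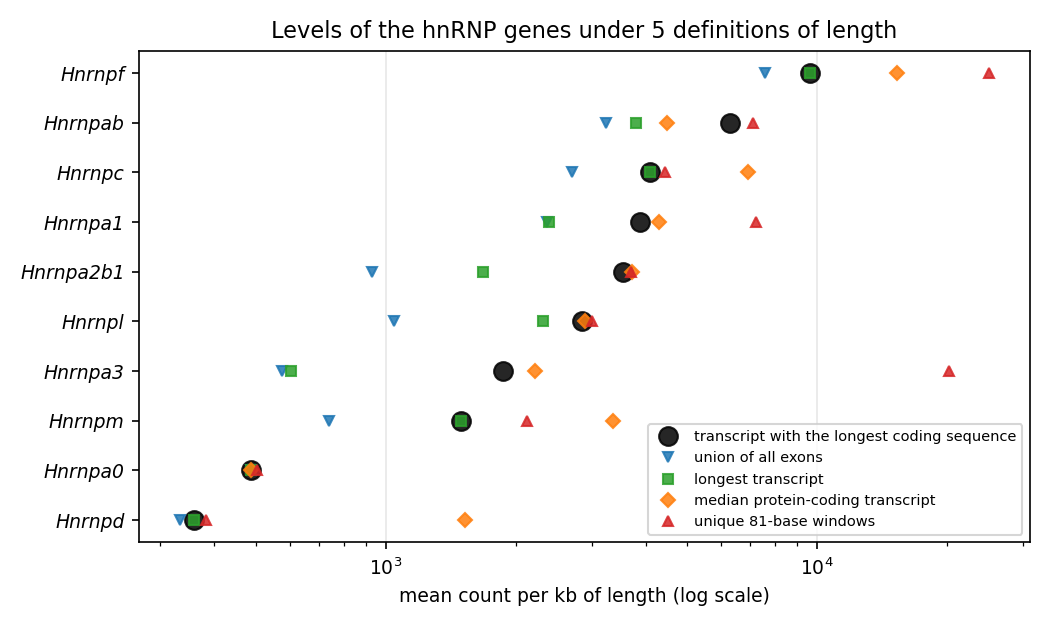
Mean count per kb (log axis) for each hnRNP gene, ordered by the level over the transcript with the longest coding sequence (black circles), with 4 other definitions of length as coloured symbols. Hnrnpf lies highest under each definition, whereas Hnrnpd moves from 359 to 1525 and Hnrnpa3 reaches 20237 over the few bases that no other annotated gene shares.

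The same scale placed these genes among the rest of their family. Of 18 further hnRNP genes, all lay above the median gene per kb, with a median of 915 per kb against 3194 for the 10 genes described. The third highest of all 28 on the default length was Hnrnpk at 4456 per kb, between Hnrnpab and Hnrnpc. Hnrnpk ran from 2047 to 13903 per kb over the 4 lengths, so its place depended on the length used. Against its close relatives, Hnrnpf was 2.71-fold above Hnrnph1 (2.71 to 5.87 over the 4 lengths), 9.68-fold above Hnrnph2 (8.35 to 9.68) and 54.0-fold above Hnrnph3 (54.0 to 84.0). Hnrnpl was 8.31-fold above Hnrnpll (8.31 to 11.4), and Hnrnpab 3.28-fold above Hnrnpdl (1.99 to 3.28). Hnrnpc was 2.36-fold above Raly, the other gene of its type, and this ratio ran from 2.36 to 3.76 over the 4 lengths. Hnrnpd was at 0.188 of Hnrnpdl, with a range up to 0.743. The ratio of Hnrnpm to its relative Myef2 was 0.834 and ran up to 2.26, so its direction depended on the length used.

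The genes that write and read m6A provided a further reference. The 8 writer genes had mean counts from 316 to 4824 and a median level of 295 per kb, with Wtap, which encodes the adaptor of the writer complex, the highest at 2342 per kb. Mettl3 itself had a mean count of 684 and a level of 338 per kb, and because the mean pools treated and untreated cells and the tag acts on the protein, it checks no label. The 5 genes of the YTH domain readers had mean counts from 926 to 4165 and a median level of 1009 per kb. Per kb of the default transcript, 6 of the 10 hnRNP genes lay above all 13 of these genes. Hnrnpa3, Hnrnpm, Hnrnpa0 and Hnrnpd lay below Wtap on that length. The count depended on the length used. Over the 4 lengths, Ythdf2 ran up to 4362 and Wtap up to 3675 per kb. Hnrnpa1 ran up to 4292, Hnrnpa2b1 up to 3723 and Hnrnpl up to 2899. Hnrnpab ran down to 3238 and Hnrnpc down to 2698, whereas Hnrnpf was at 7587 at its lowest. These extremes can come from different lengths, and the genes above all 13 were not counted for each other length.

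**Figure D3:**
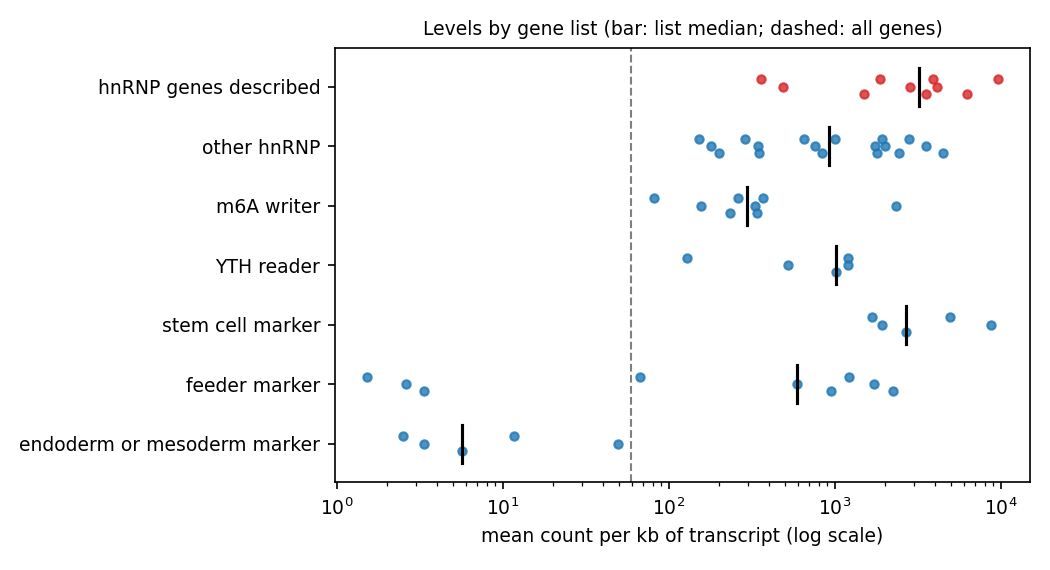
Mean count per kb (log axis) of each gene in 7 lists, with a black bar at each list's median and a dashed line at 59.2, the median of all genes. The 10 hnRNP genes (red) spread from 359 to 9628 around a median of 3194, and the 8 m6A writer genes from 80.9 to 2342 around 295.

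Several of these genes have processed copies elsewhere in the genome, and the authors kept only reads that aligned to a single place. Of 62 genes that have a transcript annotated as a pseudogene, with at least 90% identity to a member over at least 200 bases, 34 were copies of Hnrnpa3, 18 of Hnrnpa1 and 7 of Hnrnpf. Hnrnpa2b1, Hnrnpc and Hnrnpl had 1 each and the other genes none. By gene type, 2 of the 62, Gm5269 for Hnrnpa1 and Gm17190 for Hnrnpa3, are listed as protein-coding. Among windows of 81 bases, the read length, 90.3% of those of Hnrnpa3 occurred in another annotated gene, as did 60.3% of those of Hnrnpf (45.9% in genes elsewhere) and 43.9% of those of Hnrnpa1. Hnrnpa0 and Hnrnpa2b1 had no such window. No window was shared between the transcripts used for any pair of the 10 genes. A read of that length from these transcripts could thus not match both of a pair exactly. Other transcripts and introns of the 10 genes were not compared with each other.

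**Figure D4:**
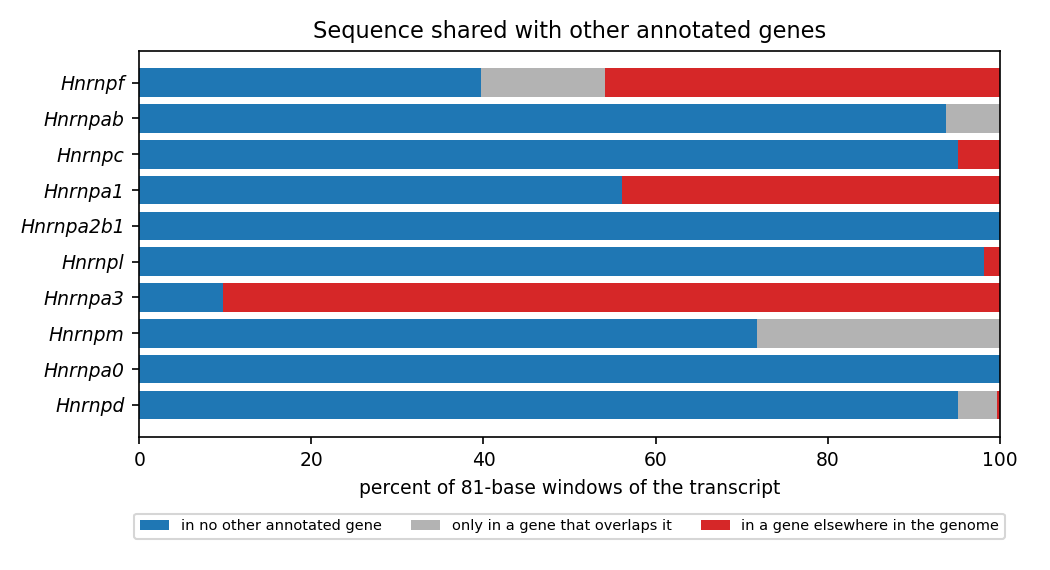
Percent of the 81-base windows of each hnRNP transcript that occur in no other annotated gene (blue), only in a gene overlapping it (grey) or in a gene elsewhere in the genome (red). Hnrnpa3 has 90.3% of its windows elsewhere, Hnrnpf 45.9%, and Hnrnpa2b1 and Hnrnpa0 none.

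For 1 copy the table held a row of similar size to its parent. Gm10052, annotated as a processed pseudogene at chr9:123689233-123690192 on the minus strand, has 960 bases that are identical, with 0 differences, to the whole coding sequence of the shorter Hnrnpa1 isoform. Its mean count was 5529, rank 435 of all genes, against 7455 for Hnrnpa1. Gm10052 thus held 42.6% of the 12984 summed over both rows, and stood at 5759 per kb against 3887 per kb for Hnrnpa1. All 880 of its 81-base windows occurred in Hnrnpa1 transcripts, so the origin of a single read of those bases cannot be told from its sequence alone. The reads were paired and only single alignments were kept. How the pairs counted in either row were placed was not tested. The first 81 bases of the stretch, at chr9:123690112-123690192 on the minus strand of mm10, are shown because a read of them reads the same in both genes, with the start codon in capitals:
Hnrnpa1 and Gm10052: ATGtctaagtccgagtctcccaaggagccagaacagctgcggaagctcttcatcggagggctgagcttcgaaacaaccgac

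A similar case for Hnrnpa3 was Gm6793, annotated as protein-coding at chr8:112013433-112015036. It shares 961 windows, or 61.1% of those of Hnrnpa3, and had a mean count of 1289, which was 29.4% of the sum of both rows. The copy of Hnrnpa3 with most shared windows, Gm5641 with 1378, had no row. For Hnrnpa1, another copy, Hnrnpa1l2-ps2, had a mean count of 10.7. Over the bases that no other annotated gene shares, Hnrnpa3 would stand at 20237 per kb and Hnrnpf at 25074 per kb, a scale chosen after seeing the data that assigns the whole mean count to those bases. The mean counts of Hnrnpa1, Hnrnpa3 and Hnrnpf are therefore uncertain by the way reads were placed.

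Hnrnpab and Hnrnpm also share exonic bases with a neighbouring gene that has a row. Hnrnpab shares 809 exonic bases with Phykpl on the other strand, which had a mean count of 90.7. Hnrnpm shares 1169 exonic bases with March2 on its own strand, which had a mean count of 172. The libraries were stranded. The methods name default parameters for counting, whereas the name of the deposited output holds the word reverse. Whether counting used strand was therefore not settled. It is thus not known whether reads of Hnrnpab and Phykpl in the shared bases were kept apart.

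Both Hnrnpa1 and Hnrnpa2b1 start next to a gene for an HP1 protein, a reader of methylated histone H3, on the opposite strand. The starts of Hnrnpa1 and Cbx5 lie 616 bases apart, and those of Hnrnpa2b1 and Cbx3 466 bases apart. Cbx5 had a mean count of 9562 and a level of 1086 per kb, and Hnrnpa1 was 3.58-fold above it per kb. Cbx3 had a mean count of 5005 and a level of 2650 per kb, with Hnrnpa2b1 1.34-fold above it per kb. Hnrnpd starts 123 bases from 4930524J08Rik, which had no row. A protein-coding start on the opposite strand within 1000 bases was thus present for 3 of the 10 genes, and for 8.60% of 16342 protein-coding genes.

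The promoters of these genes were read from RefSeq on GRCm38.p6, from 250 bases before to 50 bases after the start, and all 10 were matched. The letters CCAAT occurred on either strand in 7 of 10, against 38.5% of 13412 promoters of genes in the table. GGGCGG occurred in 6 of 10 against 59.1%, CACGTG in 3 of 10 (Hnrnpa3, Hnrnpd and Hnrnpm) against 9.54%, and TATAAA in 2 of 10 (Hnrnpab and Hnrnpm) against 8.31%. Median observed over expected CpG was 1.10 for the 10 promoters and 0.712 for all, and Hnrnpf, at 0.384, was the 1 promoter under the latter. Hnrnpf has 4 start sites in RefSeq, and the one nearest the GENCODE start was used. The promoters read for Hnrnpl, chr7:28810640-28810939, and Hnrnpm, chr17:33685409-33685708, lie wholly inside the GENCODE genes. The 250 bases before the start are shown for the m6A-related Hnrnpa2b1 and Hnrnpc and for Hnrnpa1, since they differ in how often CCAAT occurs, with 1, 4 and 4 matches. Capitals mark CCAAT and GGGCGG on either strand, and the positions are chr6:51469895-51470144 minus, chr14:52104022-52104271 minus and chr15:103240147-103240396 plus:
Hnrnpa2b1: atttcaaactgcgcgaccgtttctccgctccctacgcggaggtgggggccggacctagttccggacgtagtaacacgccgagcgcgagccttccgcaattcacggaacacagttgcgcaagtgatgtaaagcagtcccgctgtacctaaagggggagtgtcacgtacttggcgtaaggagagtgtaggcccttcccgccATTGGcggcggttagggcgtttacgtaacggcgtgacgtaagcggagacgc
Hnrnpc: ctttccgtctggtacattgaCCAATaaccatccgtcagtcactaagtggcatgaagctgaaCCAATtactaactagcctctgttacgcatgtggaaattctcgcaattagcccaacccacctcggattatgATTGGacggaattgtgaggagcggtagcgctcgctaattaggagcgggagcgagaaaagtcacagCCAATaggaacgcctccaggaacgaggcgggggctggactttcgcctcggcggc
Hnrnpa1: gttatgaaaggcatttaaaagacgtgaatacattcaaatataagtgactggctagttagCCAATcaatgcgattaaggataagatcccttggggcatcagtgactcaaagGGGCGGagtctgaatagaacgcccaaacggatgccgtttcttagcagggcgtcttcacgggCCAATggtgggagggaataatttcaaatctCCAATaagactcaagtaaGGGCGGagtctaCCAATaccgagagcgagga

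The 4 matches of CCAAT before Hnrnpc include 1 in the reverse orientation, written ATTGG, and the single match before Hnrnpa2b1 is also reversed. In the promoter of Hnrnpa1, both GGGCGG matches lie among the CCAAT matches. A match gives the letters only and is no measure of binding.

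The transcripts themselves were searched for GGACT, the DNA form of the commonest m6A consensus, on the sense strand. The 10 transcripts held 19 matches, with a median of 0.654 per kb against 1.05 per kb for 17374 genes, and 2 of the 10 lay at or above the latter. Hnrnpd held 5 matches, Hnrnpa0 4 and Hnrnpl 3, while Hnrnpa2b1 and Hnrnpab held none. Of the 19, 10 lay in 3′ UTRs, 8 in coding sequence and 1 in a 5′ UTR, or 0.847, 0.640 and 0.306 per kb. Whether any of these sites was methylated was not analysed here.

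Runs of uridine, the element that HNRNPC binds, were searched for as TTTTT in the same transcripts. Overlapping matches were each counted, so a longer run gave several matches, and separate runs were not counted. The median was 5.81 per kb against 1.65 per kb for all genes, and 9 of the 10 genes lay at or above the latter. Hnrnpc held 25 matches, or 8.78 per kb, at the 96.3rd percentile of genes. Hnrnpl reached 14.7 per kb and Hnrnpa0 12.7 per kb, whereas Hnrnpab had 0.696 per kb. Median GC content was 47.2% for the 10 transcripts and 50.5% for all genes, and its part in the motif counts was not tested.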

How the data were processed

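Total RNA-seq libraries from 8 samples, 4 treated with dTAG-13 and 4 untreated, were processed by the authors. They removed ribosomal RNA reads, aligned 81-base read pairs to N-masked mm10 with STAR keeping single alignments, removed duplicates with Picard and ran TEtranscripts. The deposited signal is the authors' mean over libraries of normalised counts for 17597 genes and 1097 transposable element subfamilies, summing to 16292717. Depth per library is therefore unknown here, and no interval is given. The other 5 columns hold the authors' comparison (log2 fold change, its SE, statistic, p-value and adjusted p-value) and were not used, so no group comparison was made. Members and gene lists were chosen with earlier results of these data known.

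Symbols were matched to GENCODE vM21, 16660 exactly and 715 through an older symbol, and 34 ambiguous and 188 unmatched symbols were left without a position. Mean counts were divided by transcript length in kb. Copies were found with blastn 2.17.0 (e-value limit 1e-20) and shared windows by exact match, with Python 3.11.15 and numpy 2.4.6. The percentile function was checked on simulated ranks, and motif counting and reverse complements on short made sequences. The other steps had no informative test. The genes named were all members, fixed lists of hnRNP, m6A and marker genes, neighbours within 1000 bases or overlapping, and annotated copies of members. Gm6793, Gm5641, Gm5269 and Gm17190 were chosen after their values were seen.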

Additional observations from a re-analysis of the deposited data

How the results depend on the processing

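The median level of the 10 hnRNP genes was 3194 per kb over the transcript with the longest coding sequence. It was 986 over the union of exons and 1998 over the longest transcript, and, with lengths chosen after seeing the data, 3540 over the median protein-coding transcript and 4070 over bases in no other annotated gene. Of 40 recomputed levels, 18 were higher, 15 lower and 7 equal. The levels over unshared windows had to be higher for all 10 genes, since a transcript has fewer such windows than bases. Of 10 places in the order, 6 were kept with the union of exons, 4 with the longest transcript and 3 with the median protein-coding transcript. Unshared windows kept 4, and no length scaling kept 2. With all 5 lengths, 33 of 45 pairs kept their order. The share of the summed mean count was 0.523% of genes and 0.468% with transposable elements included. The median percentile was 97.9, and 97.3 when genes below a mean of 10 were left out, 96.3 when those below 100 were, and 97.8 among protein-coding genes. The share of Hnrnpf was 27.9% among the 10 genes and 16.1% with the 18 other hnRNP genes. GGACT stood at 0.654 per kb and at 0.718 in the longest transcripts. The changes follow from the lengths, genes and transcripts each alternative takes.

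No paired analysis was possible because the table holds 1 mean over libraries and no value per library. The planned dTAG-13 comparison was not run for the same reason, nor were its alternatives (DESeq2 in place of edgeR, leaving out each replicate, a replicate block, no filter on low counts). Spread between libraries was not estimated, since the columns of the authors' comparison were not used.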
